A study of Mus musculus with 6 samples.

Results

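The 38 genes described here mark T cells, natural killer (NK) cells and innate lymphoid cells. They were listed by gene symbol, and the list was chosen with earlier results of these data known. All 38 were among the 21374 genes of the deposited table, and all 38 passed the filter on low values. They were measured by bulk RNA sequencing of distal colon from C57BL/6 mice, with 3 libraries labelled Otud1-/- and 3 labelled wild type. Otud1 encodes a deubiquitinase, an enzyme that removes ubiquitin from proteins. All mice were male. At 6 weeks of age, on day 0, each was given azoxymethane, which causes colon tumours. They then had 3 cycles of 4 days of 1.5% dextran sulfate sodium in the drinking water, which damages the gut lining, and 14 days of plain water after each cycle. The tissue was collected at 18 weeks of age (day 81), and the RNA came from tissue beside the tumours. The treatment, sex, strain and age were therefore shared, and the labels separate the groups by genotype alone. Which part of Otud1 was deleted, and whether in all cells, is not given in the sources used here. Each library held 15300937 to 19406407 reads assigned to genes.

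T cells recognise antigen through a receptor made of variable chains, alpha with beta or gamma with delta, which signals through the CD3 chains and the kinases LCK and ZAP70. CD4 T cells help other immune cells, CD8 T cells kill infected or transformed cells, and regulatory T cells, which depend on FOXP3, restrain both. The colon wall also holds gamma delta and CD8 T cells within the epithelium, NK and innate lymphoid cells, and lymphoid follicles in which T cells lie beside many B cells.

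Values are normalised read counts, that is, reads of a gene divided by the size factor of its library, and they are given in the order of replicates 1, 2 and 3. Changes are differences of means of log2(normalised read count + 1), libraries labelled Otud1-/- minus libraries labelled wild type, with their standard error (SE). Adjusted p-values are from limma with Benjamini-Hochberg adjustment over 21281 tested genes. Nothing in the labels ties a library to an animal of its own, and these p-values measure the spread between libraries, which may be partly technical.

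Otud1 itself had normalised read counts of 141, 150 and 208 in the libraries labelled Otud1-/-, against 111, 45.1 and 48.9 in those labelled wild type. It was thus higher in every library labelled as lacking it, with a change of 1.37 ± 0.35 and an adjusted p of 0.0934 by limma, so the genotypes below are those of the labels and each direction rests on them. On the first principal component of all genes, which held 38.8% of the variance, Otud1-/- 1 lay at 83.3 and wild type 1 at -86.5, while the other 4 libraries lay between -25.8 and 28.2. Epithelial markers were present in all 6 libraries, with Epcam between 29230 and 42135. Other epithelial markers varied more: Krt20 lay between 9505 and 42853 and Cdx2 between 836 and 3466, both lowest in Otud1-/- 1. The defining markers of T cells were low but above 0 in every library, with Cd3e between 27.3 and 113.

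The 3 CD3 genes lie together on chromosome 9, within 40056 bases of GRCm38 (44969572 to 45009627), and the starts of Cd3g and Cd3d are 1355 bases apart on opposite strands. Their promoters are shown because these 3 genes define the T lineage and had their highest values in the same library. Each sequence is from RefSeq (GRCm38.p6), runs from 250 bases before to 50 bases after the start of the gene, and is read along the gene's strand. The motifs searched on both strands were the ETS core GGAAGT, the E-box CAGGTG and the RUNX motif TGTGGT, and matches are in capitals, as ACTTCC for the ETS core and CACCTG for the E-box on the reverse strand.
Cd3e promoter, chr9:45009562-45009861, minus strand: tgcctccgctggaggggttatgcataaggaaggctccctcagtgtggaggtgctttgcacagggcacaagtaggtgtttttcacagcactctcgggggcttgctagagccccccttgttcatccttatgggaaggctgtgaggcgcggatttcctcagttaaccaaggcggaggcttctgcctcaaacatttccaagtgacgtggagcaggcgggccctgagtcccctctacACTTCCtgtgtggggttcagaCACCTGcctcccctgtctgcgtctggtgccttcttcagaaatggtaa
Cd3d promoter, chr9:44981536-44981835, plus strand: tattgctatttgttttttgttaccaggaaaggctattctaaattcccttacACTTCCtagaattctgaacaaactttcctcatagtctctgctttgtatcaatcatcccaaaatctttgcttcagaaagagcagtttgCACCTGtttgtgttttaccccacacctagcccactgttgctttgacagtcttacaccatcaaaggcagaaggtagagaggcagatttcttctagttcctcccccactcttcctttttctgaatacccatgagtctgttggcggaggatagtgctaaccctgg
Cd3g promoter, chr9:44980382-44980681, minus strand: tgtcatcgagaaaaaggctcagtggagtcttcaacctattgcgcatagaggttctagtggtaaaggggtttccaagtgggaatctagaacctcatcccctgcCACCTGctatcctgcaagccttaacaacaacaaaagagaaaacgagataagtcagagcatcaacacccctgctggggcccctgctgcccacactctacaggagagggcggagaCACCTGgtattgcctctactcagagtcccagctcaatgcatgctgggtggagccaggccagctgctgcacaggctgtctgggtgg

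Cd3e and Cd3d each held 1 ETS core and 1 E-box, Cd3g held 2 E-boxes, and none of the 3 held the RUNX letters in this window. Over all 32851 RefSeq promoters of this length, 23.8% held the ETS core, 20.2% the E-box and 16.8% the RUNX motif. RefSeq entries matched 22 of the 38 genes, with 27 promoters, of which 40.7% held the ETS core, 44.4% the E-box and 40.7% the RUNX motif. A match of letters is a description and not a shown binding site.

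Trbc1 and Trbc2 encode the 2 alternative constant regions of the T cell receptor beta chain and are nearly identical, which limits how reads can be divided between them. Their first exons share 374 of 375 bases, and over the 518 coding bases the identity is 95.6%, with 23 mismatches. Windows of 60 bases around the single difference in the first exon, and the whole of exon 3, where 15 of 107 bases differ, are shown from GRCm38 with GENCODE vM21 exons. Capitals mark the bases that differ between the pair.
Trbc1 first exon, chr6:41538447-41538506, plus strand: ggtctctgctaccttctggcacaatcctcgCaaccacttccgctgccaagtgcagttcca
Trbc2 first exon, chr6:41546959-41547018, plus strand: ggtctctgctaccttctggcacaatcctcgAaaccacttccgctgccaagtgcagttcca
Trbc1 exon 3, chr6:41539229-41539335, plus strand: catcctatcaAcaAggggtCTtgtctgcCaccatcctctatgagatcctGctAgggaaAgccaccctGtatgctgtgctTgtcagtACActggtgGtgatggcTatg
Trbc2 exon 3, chr6:41547772-41547878, plus strand: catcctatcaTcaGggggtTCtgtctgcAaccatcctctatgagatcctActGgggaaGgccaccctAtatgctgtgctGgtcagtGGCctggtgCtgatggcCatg

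Across the 38 genes, 2 libraries held most of the extreme values. The library labelled wild type 1 held the highest value of 32 of the 38 genes (18.0% of all tested genes had their highest value there), and the library labelled Otud1-/- 1 held the lowest value of 20 (24.6% of all tested genes). Summed over the 38 genes, the normalised read count was 2423, 3743 and 3293 in the libraries labelled Otud1-/-, against 6495, 3155 and 2911 in those labelled wild type. The sum in wild type 1 was 2.06 times the median of the other 5 libraries, and that in Otud1-/- 1 was 0.74 times. The other 4 libraries lay between 0.88 and 1.19 times, so without the replicate 1 libraries both labelled Otud1-/- sums exceeded both labelled wild type sums. In bulk tissue, fewer cells of a type and less RNA per cell cannot be told apart.

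No member passed the test at an adjusted p under 0.05 by limma, where 0.949% of all tested genes did (0.667% lower and 0.282% higher in the libraries labelled Otud1-/-). Of the called genes, 142 of 202 were lower, but 103 of 416 after scaling to total reads and 108 of 1271 after scaling to the epithelium list. At an unadjusted p under 0.05 there were 3 members (Ikzf2, Zap70 and Cd8b1), with 19.5% of all tested genes past it. On the recovered whole reads of the 5 libraries other than Otud1-/- 3, edgeR called 0 of 37 members (0.24% of all genes it tested), with 2 at an unadjusted p under 0.05 (19.1%). DESeq2 called 0 of 37 (7.29% of all genes with an adjusted p), with 3 at an unadjusted p under 0.05 (16.5%). The change was below 0 for 33 of the 38 genes against 48.3% of all tested genes, but for 20 without wild type 1 and for 14 without both replicate 1 libraries. Wild type 1 was the highest wild type library for 34 of the 38 genes (32.4% of all tested genes). Otud1-/- 1 was the lowest of its label for 24 (37.6%). Leaving both out therefore raises most of these changes by selection, and no other pair was left out together. Scaling to the epithelium list raised all genes, so that 16.7% of all tested genes and 17 of the 38 had changes below 0, while 34 of the 38 lay below the median of all genes (33 without that scaling). The median change of the 38 was -0.36, beside 0.02 over all tested genes, and without both replicate 1 libraries it was 0.17, beside 0.01. After scaling to the epithelium list it was 0.08, beside 0.44 over all tested genes, so that the members lay 0.37 below, against 0.38 below without that scaling. Groups did not overlap for 5 genes with lower values in the libraries labelled Otud1-/- (Cd7, Cd8b1, Ikzf2, Klrk1 and Tbx21; 13.3% of all tested genes) and for 1 gene with higher values (Zap70; 13.0%). The other 32 genes overlapped.

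**Figure D1:**
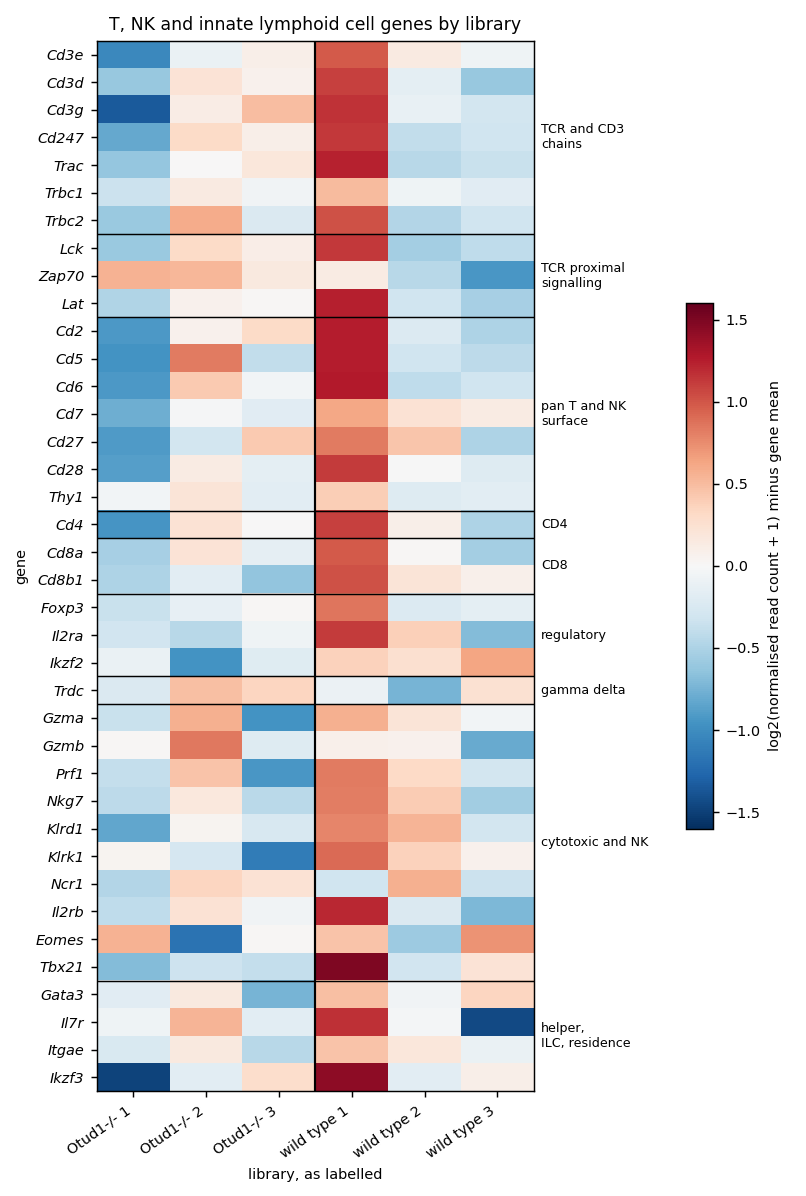
Each row is 1 of the 38 genes, ordered by role, and each column 1 library, with the libraries labelled Otud1-/- left of those labelled wild type; the colour is the log2(normalised read count + 1) relative to the mean of that gene over the 6 libraries. The wild type 1 column is the highest for 32 genes and the Otud1-/- 1 column the lowest for 20.

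The chains of the T cell receptor complex followed the replicate 1 libraries. All 7 (Cd3e, Cd3d, Cd3g, Cd247, Trac, Trbc1 and Trbc2) had their highest value in wild type 1 and their lowest in Otud1-/- 1, and 0 were called. Cd3e, the CD3 epsilon chain (chromosome 9, 44998740 to 45009627), had normalised read counts of 27.3, 52.9 and 60.5 in the libraries labelled Otud1-/-, against 113, 63.0 and 54.0 in those labelled wild type. Without the replicate 1 libraries the remaining Cd3e values lay between 52.9 and 63.0. The Cd3e change was -0.70 ± 0.39 (adjusted p = 0.357, limma), and -0.04 without both replicate 1 libraries. Trac, the constant region of the alpha chain, had 63.1, 97.9 and 110 in libraries labelled Otud1-/-, against 230, 71.5 and 75.5 in libraries labelled wild type. Here the Otud1-/- 2 and 3 values lay above wild type 2 and 3, and the change of -0.29 ± 0.46 (adjusted p = 0.778, limma) was 0.49 without both replicate 1 libraries.

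Cd3g, the CD3 gamma chain, showed the widest range of the CD3 chains, with 36.7, 102 and 133 in libraries labelled Otud1-/-, against 211, 86.5 and 76.5 in libraries labelled wild type. Its groups overlapped, with a change of -0.49 ± 0.57 (adjusted p = 0.689, limma). Cd3d, the CD3 delta chain, had 47.8, 85.5 and 76.7 in libraries labelled Otud1-/-, against 157, 65.8 and 47.9 in libraries labelled wild type, where wild type 3 was almost as low as Otud1-/- 1. Trbc1 had 66.6, 93.4 and 81.7 in libraries labelled Otud1-/-, against 120, 80.9 and 74.4 in libraries labelled wild type, and Trbc2 65.7, 151 and 84.8 against 204, 71.5 and 79.5. Both overlapped, and the division of reads between these near-identical genes is uncertain. Cd247, the zeta chain that carries most of the signalling motifs, had 26.5, 58.5 and 50.5 in libraries labelled Otud1-/-, against 104, 35.7 and 37.7 in libraries labelled wild type. Exons of Pou2f1 on the opposite strand cover 56.4% of the Cd247 exon bases, and the strand setting of the counting is not given in the sources used here, so reads on the shared bases cannot be assigned to 1 of the 2 genes.

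Zap70 departed from the other signalling genes. ZAP70 (chromosome 1, 36761798 to 36782818) is the kinase that binds the phosphorylated CD3 and zeta chains. It had 223, 218 and 168 normalised reads in the libraries labelled Otud1-/-, against 166, 111 and 78.5 in those labelled wild type. All 3 libraries labelled Otud1-/- were above all 3 labelled wild type, although Otud1-/- 3 and wild type 1 were only 1.92 apart. Means were 203 ± 30.7 and 118 ± 44.0 (SD, n = 3 each), with a change of 0.83 ± 0.28 (adjusted p = 0.160, limma). Leaving out 1 library at a time gave changes of 0.57 to 1.10, and the adjusted p over all alternatives ran between 0.0237 and 0.351. The lowest of these came from scaling to the epithelium list, under which Zap70 was called with a change of 1.27; the median of all genes was then 0.44 and 5.97% of all tested genes were called. It was the only member with its highest value in Otud1-/- 1, the library in which 20 members were lowest.

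Lck, the kinase that phosphorylates the CD3 chains first, had 167, 313 and 273 in libraries labelled Otud1-/-, against 559, 174 and 192 in libraries labelled wild type. Lat, the membrane adaptor that ZAP70 phosphorylates, had 101, 147 and 142 in libraries labelled Otud1-/-, against 333, 113 and 96.9 in libraries labelled wild type. For both genes wild type 1 was the highest library, and Otud1-/- 2 and 3 came next, above wild type 2 and 3. The changes were -0.13 ± 0.49 for Lck (adjusted p = 0.918, limma) and -0.26 ± 0.46 for Lat (adjusted p = 0.798, limma), and without both replicate 1 libraries they were 0.68 and 0.47.

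**Figure D2:**
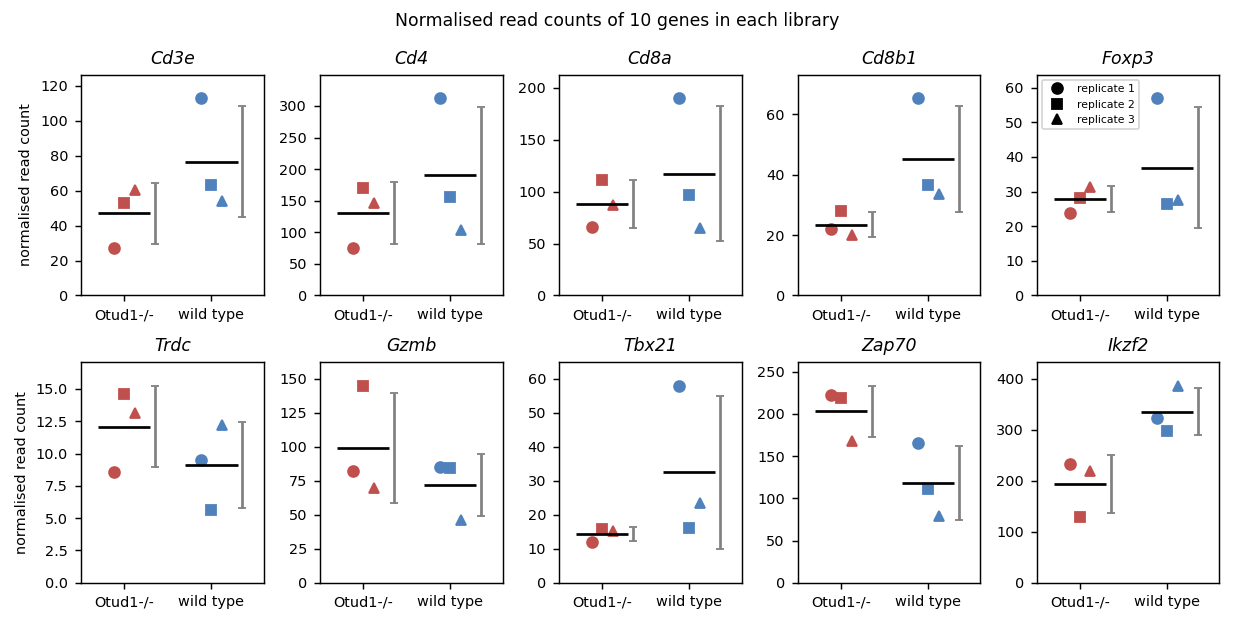
Normalised read counts of 10 genes, with 1 point per library, libraries labelled Otud1-/- left of those labelled wild type, and the mean with its SD (n = 3) as a line and bar. For Cd3e, Cd4, Cd8a and Foxp3 wild type 1 lies above the other 5 libraries, while for Zap70 the 3 libraries labelled Otud1-/- lie at 168 to 223, above 78.5 to 166 in those labelled wild type.

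Surface molecules of T cells, only some of them also on NK cells, are called the shared surface genes below. They followed the same libraries: all 7 were highest in wild type 1, and 6 were lowest in Otud1-/- 1. Thy1, a surface glycoprotein of mouse T cells and also of some stromal cells, was the least variable, with 273, 325 and 250 in libraries labelled Otud1-/-, against 372, 245 and 251 in libraries labelled wild type. Its change was -0.02 ± 0.20 (adjusted p = 0.978, limma). Cd7, carried by T, NK and some innate lymphoid cells, had 34.99, 59.6 and 53.5 in libraries labelled Otud1-/-, against 93.9, 71.5 and 66.3 in libraries labelled wild type. The Cd7 groups did not overlap, but its change of -0.65 ± 0.29 did not pass the test (adjusted p = 0.259, limma) and was -0.28 without both replicate 1 libraries. Cd28, the main costimulatory receptor, had 30.7, 63.0 and 51.5 in libraries labelled Otud1-/-, against 127, 57.4 and 49.97 in libraries labelled wild type. The adhesion receptor Cd2, the inhibitory coreceptor Cd5, its relative Cd6 and the costimulatory Cd27 were each lowest in Otud1-/- 1 and highest in wild type 1, with ranges of 58.9 to 269, 29.9 to 141, 45.2 to 210 and 19.6 to 67.5. Their changes lay between -0.53 and -0.35, with overlapping groups and adjusted p of 0.552 to 0.793 by limma.

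Cd4, the coreceptor of helper and regulatory T cells (chromosome 6, 124864692 to 124888221), had 75.1, 170 and 146 in libraries labelled Otud1-/-, against 312, 155 and 103 in libraries labelled wild type. It moved with both replicate 1 libraries: wild type 1 was 2.13 times, and Otud1-/- 1 was 0.48 times, the median of the other 5. The change was -0.47 ± 0.46 (adjusted p = 0.619, limma), -0.04 without wild type 1 and 0.32 without both. Macrophages can also carry Cd4 in some settings, so it is not specific to T cells.

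The chains of CD8, the coreceptor of cytotoxic T cells, lie next to each other on chromosome 6. Both were highest in wild type 1, and the groups overlapped for Cd8a but not for Cd8b1. The chains were not compared with each other by a test. Cd8a (71373427 to 71379173), which also forms homodimers on epithelial T cells, had 65.7, 111 and 86.8 in libraries labelled Otud1-/-, against 190, 96.9 and 65.3 in libraries labelled wild type. Its groups overlapped, and the change of -0.30 ± 0.39 (adjusted p = 0.711, limma) was 0.30 without both replicate 1 libraries. Cd8b1 (71322788 to 71337494), present only in the alpha-beta form of the coreceptor, had 22.2, 28.1 and 20.2 in libraries labelled Otud1-/-, against 65.4, 36.7 and 33.6 in libraries labelled wild type. The Cd8b1 groups did not overlap: means were 23.5 ± 4.13 and 45.2 ± 17.5 (SD, n = 3 each), with a change of -0.87 ± 0.35 (adjusted p = 0.219, limma). It kept its sign under each alternative, at -0.54 without both replicate 1 libraries and -0.44 after scaling to the epithelium list.

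The 3 regulatory genes behaved in 2 ways. Foxp3, the factor that defines regulatory T cells (chromosome X, 7573644 to 7595245), had 23.9, 28.1 and 31.3 in libraries labelled Otud1-/-, against 57.0, 26.3 and 27.5 in libraries labelled wild type. Apart from wild type 1 the values lay within 23.9 to 31.3, and the change of -0.32 ± 0.37 (adjusted p = 0.681, limma) was 0.03 without wild type 1. These are 25 to 54 reads a library, and other annotated genes share exon bases with Foxp3, among them Flicr on the same strand (18.6%) and Ccdc22 on the opposite strand (12.9%). Il2ra, the high-affinity interleukin-2 receptor chain of regulatory and activated T cells, had 32.4, 29.2 and 38.3 in libraries labelled Otud1-/-, against 88.6, 52.7 and 24.5 in libraries labelled wild type. The spread within the libraries labelled wild type covered all 3 labelled Otud1-/-, with a change of -0.54 ± 0.44 (adjusted p = 0.533, limma).

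Ikzf2, which encodes Helios, a zinc finger factor of regulatory T cells that other cell types also express (chromosome 1, 69531214 to 69687245), had 232, 128 and 219 in libraries labelled Otud1-/-, against 323, 297 and 386 in libraries labelled wild type. The groups did not overlap, and its extremes were in other libraries than those of most members: highest in wild type 3 and lowest in Otud1-/- 2. Means were 193 ± 56.6 and 335 ± 46.0 (SD, n = 3 each), with a change of -0.83 ± 0.24 and the smallest adjusted p of the 38 genes, 0.116 by limma. Leaving out 1 library at a time gave -0.99 to -0.56, and over all alternatives the adjusted p ran between 0.0628 and 0.497. Per kilobase of exon it stood at 22.8, against 7.07 for Foxp3, as a mean of normalised read counts over the 6 libraries.

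Trdc, the constant region of the T cell receptor delta chain and the gamma delta marker of the list (chromosome 14, 54142851 to 54148868), had 8.53, 14.6 and 13.1 in libraries labelled Otud1-/-, against 9.49, 5.64 and 12.2 in libraries labelled wild type. The groups overlapped, wild type 1 did not stand out, and the highest library was Otud1-/- 2. The change was 0.40 ± 0.46 (adjusted p = 0.675, limma) and positive under each alternative. With 6 to 13 reads a library, a difference of this size was not detected, and the part of depth in this was not tested.

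Of the 10 cytotoxic and NK genes, 7 were highest in wild type 1 but only 3 were lowest in Otud1-/- 1. Gzma, granzyme A of killer granules, had 61.4, 118 and 40.4 in libraries labelled Otud1-/-, against 118, 91.2 and 76.5 in libraries labelled wild type. Otud1-/- 2 and wild type 1 were alike for Gzma, and Otud1-/- 3 was the lowest library. Its change was -0.49 ± 0.38 (adjusted p = 0.514, limma). Gzmb, granzyme B, had 81.9, 145 and 69.6 in libraries labelled Otud1-/-, against 85.4, 84.6 and 45.9 in libraries labelled wild type, so it was highest in Otud1-/- 2. Its change was 0.43 ± 0.35 (adjusted p = 0.534, limma). Prf1, the pore-forming perforin, had 15.4, 28.1 and 10.1 in libraries labelled Otud1-/-, against 36.9, 25.4 and 16.3 in libraries labelled wild type, with overlapping groups and 10 to 35 reads a library. Nkg7, a membrane protein of killer granules, had 32.4, 49.5 and 32.3 in libraries labelled Otud1-/-, against 78.1, 58.3 and 29.6 in libraries labelled wild type, again with overlap.

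Among the receptors, Klrk1, the activating receptor NKG2D, had 17.1, 13.5 and 7.06 in libraries labelled Otud1-/-, against 31.6, 21.6 and 17.3 in libraries labelled wild type. Its groups did not overlap by a margin of 0.27 normalised reads, and the change was -0.89 ± 0.44 (adjusted p = 0.299, limma). Klrd1, the CD94 partner of inhibitory and activating NK receptors, had 17.9, 33.7 and 27.2 in libraries labelled Otud1-/-, against 57.0, 48.0 and 26.5 in libraries labelled wild type, with a change of -0.69 ± 0.39 (adjusted p = 0.361, limma). Il2rb, the receptor chain shared by interleukins 2 and 15, had 75.1, 117 and 95.9 in libraries labelled Otud1-/-, against 231, 84.6 and 60.2 in libraries labelled wild type, with wild type 1 highest, Otud1-/- 2 and 3 next and wild type 3 lowest. Ncr1, the defining receptor of NK and some innate lymphoid cells, had only 1 to 3 reads in each library, near the floor, and no difference was detected.

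The T-box factors that drive cytotoxic programmes were also low. Tbx21, which encodes T-bet, had 11.9, 15.7 and 15.1 in libraries labelled Otud1-/-, against 58.0, 16.0 and 23.5 in libraries labelled wild type. The groups were separate only by the gap between Otud1-/- 2 and wild type 2, 0.24 normalised reads, and wild type 1 stood far above the rest. Its change of -0.94 ± 0.48 (adjusted p = 0.323, limma) was -0.42 without wild type 1. Eomes, its relative, had 13.7, 3.37 and 9.08 in libraries labelled Otud1-/-, against 12.7, 5.64 and 15.3 in libraries labelled wild type, which is 3 to 16 reads, with overlap.

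Of the remaining genes, Ikzf3, which encodes Aiolos, a factor of lymphocytes that B cells also express, had the widest range: 118, 295 and 404 in libraries labelled Otud1-/-, against 897, 294 and 354 in libraries labelled wild type. Otud1-/- 2 and wild type 2 were alike, and the change of -0.91 ± 0.62 (adjusted p = 0.481, limma) was 0.10 without both replicate 1 libraries. Gata3, the factor of type 2 helper and innate lymphoid cells, had 31.6, 40.5 and 21.2 in libraries labelled Otud1-/-, against 50.6, 34.8 and 45.9 in libraries labelled wild type. Il7r, the interleukin-7 receptor of naive, memory and innate lymphoid cells, had 52.1, 79.9 and 48.4 in libraries labelled Otud1-/-, against 124, 53.6 and 19.4 in libraries labelled wild type. The spread of Il7r was larger within the libraries labelled wild type than between the groups, and its change was 0.20 ± 0.62 (adjusted p = 0.893, limma). Itgae, the CD103 integrin chain that holds T cells in the epithelium, had 117, 154 and 102 in libraries labelled Otud1-/-, against 191, 157 and 128 in libraries labelled wild type, with a change of -0.35 ± 0.24 (adjusted p = 0.444, limma).

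The subsets therefore differed in how closely they moved with single libraries. Against the median of the other 5 libraries, wild type 1 was 2.40 times for the summed receptor and CD3 chains, 2.16 times for the proximal signalling genes, 2.02 times for the shared surface genes, 2.39 times for the CD8 pair and 2.17 times for the cytotoxic and NK genes. It was 0.78 times for Trdc, but 1.52 times for the further list of 8 gamma delta genes given below. For the regulatory genes, whose sum is mostly Ikzf2, it was 1.62 times. Singly, wild type 1 was 2.07 times for Foxp3, 2.73 times for Il2ra and 1.39 times for Ikzf2. For the helper, innate lymphoid and residence genes wild type 1 was 2.31 times, where most of the sum was Ikzf3, and Otud1-/- 1 was 0.56 times. Otud1-/- 1 was 0.56 times for the receptor and CD3 chains and 0.48 times for Cd4, but 0.66 times for the CD8 pair, 0.75 times for the cytotoxic and NK genes and 0.77 times for the regulatory genes. The regulatory sum was lowest in Otud1-/- 2, at 0.49 times, where most of it was Ikzf2. Otud1-/- 2 held 1.61 times the median of the others for the cytotoxic and NK genes and 1.54 times for Trdc.

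With all 6 libraries the median change was -0.28 for the receptor and CD3 chains, -0.13 for the proximal signalling genes and -0.36 for the shared surface genes, and without wild type 1 these medians were 0.22, 0.41 and 0.18. The median stayed below 0 without wild type 1 for Cd4 (-0.04), the CD8 pair (-0.23), the regulatory genes (-0.12), the cytotoxic and NK genes (-0.28) and the helper, innate lymphoid and residence genes (-0.31). The replicate 1 libraries held most of the extreme values of these genes, so leaving both out raises most medians by selection. Without both replicate 1 libraries the medians were 0.52 for the receptor and CD3 chains, 0.68 for proximal signalling, 0.20 for the shared surface genes and 0.32 for Cd4. They were -0.12 for the CD8 pair, -0.10 for the regulatory genes, -0.24 for the cytotoxic and NK genes, -0.04 for the helper, innate lymphoid and residence genes and 0.66 for Trdc. Scaling to the epithelium list, under which the median of all genes was 0.44, gave 0.15, 0.31 and 0.07 for the receptor and CD3 chains, proximal signalling and the shared surface genes, and -0.03, -0.15, -0.11 and -0.04 for Cd4, the CD8 pair, the regulatory and the cytotoxic genes, so each of these medians lay below that of all genes. Under that scaling the helper, innate lymphoid and residence genes stood at 0.0035, also below, and Trdc at 0.80, above.

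**Figure D3:**
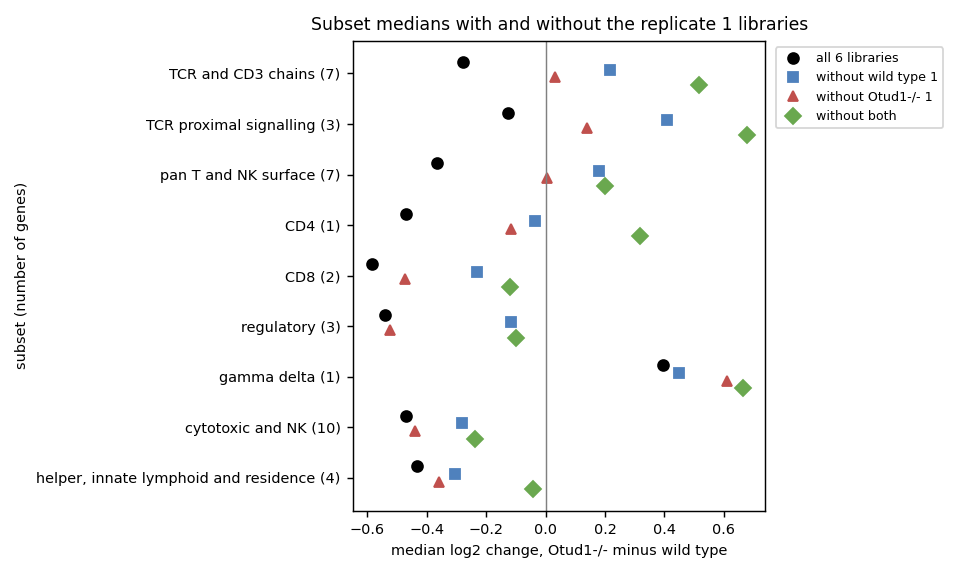
Median log2 change (libraries labelled Otud1-/- minus libraries labelled wild type) of each subset, with the number of genes in brackets, for all 6 libraries, without wild type 1, without Otud1-/- 1 and without both. The receptor and CD3 chains lie at -0.28 with all libraries and at 0.52 without both, while the cytotoxic and NK genes lie at -0.47 and -0.24; scaling to epithelial genes, not drawn, puts the receptor and CD3 chains at 0.15 and the median of all genes at 0.44.

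Ratios between 2 genes of the same library do not depend on the scaling, and 6 were compared with an exact two-sided permutation test, whose smallest possible p is 0.1 with 3 libraries against 3. The ratio of Foxp3 to Cd3e was 0.875, 0.532 and 0.517 in libraries labelled Otud1-/-, against 0.505, 0.418 and 0.509 in libraries labelled wild type. All 3 values labelled Otud1-/- were higher, the smallest gap being 0.0072, with an exact p of 0.1, the smallest possible, and an adjusted p of 0.48 over the 6 ratios. Without Otud1-/- 1 the difference of means was 0.0470, and 0.164 with it. This separation was seen against Cd3e only: relative to all receptor and CD3 chains together, Foxp3 overlapped, as given below. The ratio of Trdc to Cd3e was 0.312, 0.277 and 0.217 in libraries labelled Otud1-/-, against 0.0841, 0.0896 and 0.226 in libraries labelled wild type, where wild type 3 reached into the other group (exact p = 0.2, adjusted 0.48). Cd8a to Cd3e was 2.41, 2.11 and 1.43 in libraries labelled Otud1-/-, against 1.68, 1.54 and 1.21 in libraries labelled wild type (exact p = 0.3, adjusted 0.48). Cd8a to Cd4 was 0.875, 0.656 and 0.593 in libraries labelled Otud1-/-, against 0.608, 0.624 and 0.634 in libraries labelled wild type (exact p = 0.5, adjusted 0.5), so 5 of the 6 libraries lay within 0.593 to 0.656. Gzma to Cd3e and Ncr1 to Cd3e overlapped, each with an exact p of 0.4 and an adjusted p of 0.48.

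**Figure D4:**
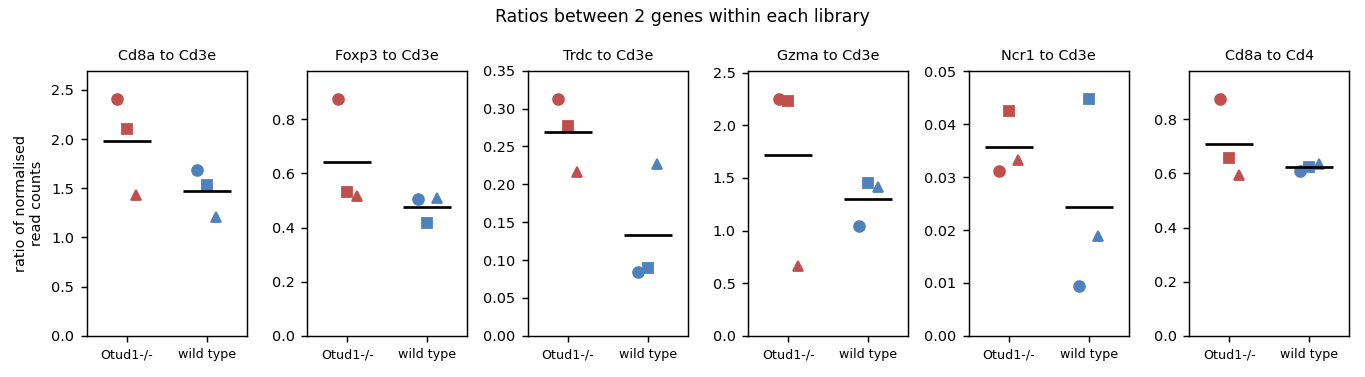
Ratios of normalised read counts between 2 genes within each library, 1 point per library and a line for each mean, with libraries labelled Otud1-/- left of those labelled wild type. Only the ratio of Foxp3 to Cd3e has groups that do not overlap, at 0.517 to 0.875 against 0.418 to 0.509. Relative to all receptor and CD3 chains together, not drawn, Foxp3 overlapped.

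Relative to the mean log2 value of the 7 receptor and CD3 chains in the same library, 29 of the other 31 genes overlapped between the labels and 2 did not, beside 8.66% of all tested genes that did not overlap on this measure (1.56% lower and 7.1% higher in the libraries labelled Otud1-/-). Zap70 stood 2.29, 1.32 and 1.03 above those chains in libraries labelled Otud1-/-, against 0.09, 0.75 and 0.35 in libraries labelled wild type, a difference of 1.15 between the means. Cd28 stood 0.53, 0.46 and 0.65 below them in libraries labelled Otud1-/-, against 0.30, 0.19 and 0.30 below them in libraries labelled wild type, a difference of -0.28. Foxp3, whose ratio to Cd3e alone did not overlap, overlapped on this measure, with a difference of 0.01 between the means. It stood at -0.87, -1.59 and -1.35 in libraries labelled Otud1-/-, against -1.43, -1.29 and -1.13 in libraries labelled wild type. These are differences on the log2 scale, within each library, and carry no test.

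Per kilobase of annotated exon, averaged over the 6 libraries, the beta and alpha chain constant regions led, with normalised read counts of 158 for Trbc2, 115 for Trac and 115 for Trbc1. Thy1 and Lck followed at 95.6 and 95.5, Gzma at 83.8 and Cd2 at 72.8. The coreceptors stood at 39.8 for Cd4, 28.2 for Cd8a and 23.2 for Cd8b1, Cd3e at 15.1 and Foxp3 at 7.07. The lowest were Trdc at 2.74, Klrk1 at 2.51, Eomes at 2.40 and Ncr1 at 1.08.

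Companion genes of the same pathways, in 4 further lists, gave 0 calls in either direction by limma (0.949% of all tested genes were called). Over all tested genes, 19.5% were at an unadjusted p under 0.05, 48.3% had changes below 0 and 18.0% were highest in wild type 1. Groups did not overlap for 26.3% of all tested genes, and the genes named below were picked for the smallest p of each list. Of 24 partners in T cell receptor signalling, 4 were at an unadjusted p under 0.05, 21 had changes below 0 with a median of -0.36, and 21 were highest in wild type 1. Without both replicate 1 libraries the median of these partners was 0.01. Grap2, an adaptor that joins LAT to SLP-76, had the smallest p of that list, at 40.1, 54.0 and 88.8 in libraries labelled Otud1-/-, against 177, 103 and 104 in libraries labelled wild type, with no overlap (change -1.08, adjusted p = 0.140, limma). Of 22 lineage and circulation factors, 3 were at an unadjusted p under 0.05, 16 had changes below 0, and the median was -0.39. Zbtb7b, a factor that directs CD4 T cells, had a change of -0.66 without overlap (adjusted p = 0.146, limma). It had 2160, 3953 and 3234 in libraries labelled Otud1-/-, against 5257, 4362 and 4720 in libraries labelled wild type. These values lay far above those of Cd4 (75.1 to 312), and which cells they came from was not tested. In the other direction, Lef1 and Tcf7, factors of naive T cells that the colonic epithelium also uses in Wnt signalling, had changes of 1.27 and 0.81 (adjusted p = 0.142 and 0.146, limma). Both were highest in Otud1-/- 1, the library with the fewest receptor chain reads.

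Of the 21 measured further cytotoxic and NK genes, 4 were at an unadjusted p under 0.05, 10 had changes below 0, and the median change was 0.00. Ccl5, a chemokine of memory and killer T cells, had 76.8, 190 and 104 in libraries labelled Otud1-/-, against 402, 293 and 368 in libraries labelled wild type. The groups did not overlap, with a change of -1.603 and an adjusted p of 0.0551 by limma, which missed the threshold. Over the alternatives the adjusted p ran between 0.0107 and 0.201. Cst7, the protease inhibitor cystatin F, had 20.5, 28.1 and 40.4 in libraries labelled Otud1-/-, against 140, 72.4 and 49.97 in libraries labelled wild type (change -1.45, adjusted p = 0.115, limma). In the other direction, Gzmc, granzyme C, had 8.53, 4.50 and 8.07 in libraries labelled Otud1-/-, against 0, 2.82 and 0 in libraries labelled wild type, without overlap (adjusted p = 0.136, limma). Those are 4 to 10 reads against 0 to 3 reads. Of the 17 symbols listed for gamma delta chains and factors, several of them alternative names, 8 were found. Of these, 1 was at an unadjusted p under 0.05, and the median was -0.59. Unlike Trdc, 6 of the 8 were highest in wild type 1 (18.0% of all tested genes), Tcrg-C1, Tcrg-C4 and Trdv4 among them. Trdv4, a variable segment of the delta chain, had 1.71, 0 and 3.03 in libraries labelled Otud1-/-, against 11.6, 7.52 and 10.2 in libraries labelled wild type, with no overlap (adjusted p = 0.115, limma). Those are 0 to 3 reads against 8 to 11 reads. The gamma chain constant regions Tcrg-C1 and Tcrg-C4 overlapped, with changes of -0.81 and -0.61 (adjusted p = 0.424 and 0.492, limma).

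Markers of other cells are given beside these results, and those of B cells and most of the lymphoid follicle list moved with the same libraries. Highest in wild type 1 were 4 of 10 macrophage and monocyte markers and 2 of 12 epithelial markers. For smooth muscle and endothelium these counts were 0 of 8 and 2 of 6, and the share over all tested genes was 18.0%. All 10 B cell markers were highest in wild type 1 and lowest in Otud1-/- 1. Their summed normalised read count was 2762, 5381 and 7172 in libraries labelled Otud1-/-, against 19437, 5702 and 6785 in libraries labelled wild type, and 0 were called. Their median change was -0.94, and 0.06 without both replicate 1 libraries. The 7 measured genes of the lymphoid follicle list summed to 787, 1468 and 1555 in libraries labelled Otud1-/-, against 3342, 1960 and 1528 in libraries labelled wild type, 0 called. Not all of them are particular to stroma, Ltb and Tnfsf11 among them. Ltb had 295, 516 and 459 in libraries labelled Otud1-/-, against 1225, 424 and 496 in libraries labelled wild type. Cxcl13, the chemokine of B cell follicles, had 255, 431 and 494 in libraries labelled Otud1-/-, against 1323, 959 and 611 in libraries labelled wild type, without overlap (change -1.28, adjusted p = 0.132, limma). Ccl19, which T zone stroma makes, was at 0 in at least 1 library. The part of B cells and follicles in the T cell values was not tested.

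The 10 macrophage and monocyte markers summed to 9945, 10843 and 10199 in libraries labelled Otud1-/-, against 18470, 18667 and 15027 in libraries labelled wild type. Of these, 0 were called and 10 were at an unadjusted p under 0.05 (19.5% of all tested genes). Their median change was -0.78 (-0.66 without both replicate 1 libraries). The 8 smooth muscle markers summed to 58183, 120177 and 88249 in libraries labelled Otud1-/-, against 37676, 39017 and 35360 in libraries labelled wild type. All 8 were higher in the libraries labelled Otud1-/- without overlap (13.0% of all tested genes), with a median change of 1.15. Of these, 2 were called higher (0.282% of all tested genes), Myl9 and Myh11 (adjusted p = 0.0440 and 0.0492, limma). The 12 epithelial markers summed to 278817, 436583 and 329995 in libraries labelled Otud1-/-, against 509230, 451151 and 538499 in libraries labelled wild type, 0 called. Of these, 9 were lowest in Otud1-/- 1 (24.6% of all tested genes), where the sum was 0.62 times the median of the other 5 libraries. Changes were below 0 for 11 of them (48.3% of all tested genes). Their median change was -0.51, and -0.28 without both replicate 1 libraries. The 6 endothelial markers had a median change of 0.28, 0 called. The part of muscle, epithelium and macrophages in the T cell values was not tested.

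**Figure D5:**
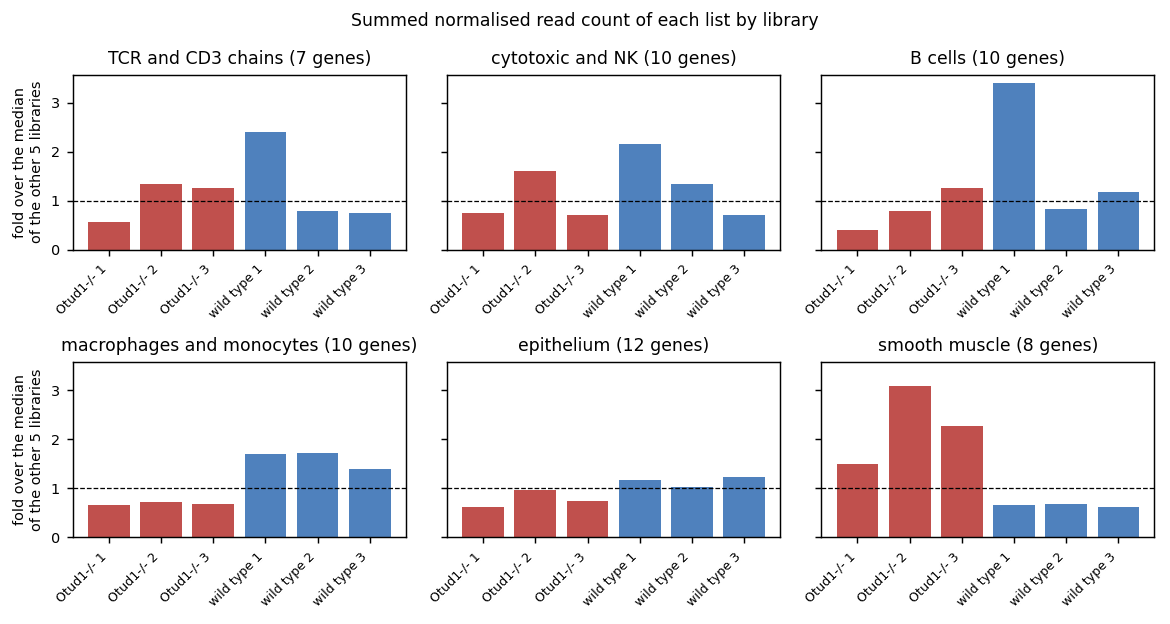
Summed normalised read count of each list in each library, as a fold over the median of the other 5 libraries, with libraries labelled Otud1-/- left of those labelled wild type and a dashed line at 1. Wild type 1 stands at 2.40 for the receptor and CD3 chains, at 2.17 for the cytotoxic and NK genes and at 3.41 for the B cell markers.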

How the data were processed

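RNA was extracted with Trizol from distal colon beside tumours and libraries followed standard Illumina protocols, per the labels' protocols. Per the submitters' processing notes, reads were placed on mm10. Not given in the sources used here are the aligner, the read counter, whether it used strand, and which annotation it used. The deposited table holds a normalised signal per gene, not raw counts. In each column 100% of the values were whole multiples of a single step (tolerance 0.001 of a read), and division by it gave whole reads. The step of Otud1-/- 3 lies so near 1 that a check of the values did not accept its reads as recovered, so read numbers that include this library are descriptions. The value is called a normalised read count here. There were no molecular identifiers, so counting error understates the technical error.

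Symbols, coordinates and exon lengths came from GENCODE vM21 (GRCm38), with 21317 IDs matched and 57 not. Samples were grouped by the titles and genotype labels. To be tested, a gene needed 1 or more normalised reads in 3 or more libraries, which left out 93 genes and kept 21281. The test was limma 3.58.1 in R 4.3.3 (eBayes with its trend and robust options), two-sided, on log2(normalised read count + 1), and genotype was the only covariate. P-values were adjusted by Benjamini-Hochberg over the whole table, with calls at an adjusted p under 0.05. Fold changes of low genes are understated on this scale. SDs are over 3 libraries. Ratios had an exact permutation test. The alternatives left out the filter or set it at a mean of 5, or used a pseudocount of 0.1, quantile normalisation, total reads or the epithelium list as the scale, limma without trend and robust, the replicate number as a block, and the omission of libraries. Count tests on recovered reads (edgeR 4.0.16, DESeq2 1.42.0) were run on the other 5 libraries. All 38 members are accounted for. From each further list the genes named are among the 4 with the smallest p. The members, lists and alternatives were chosen with earlier results of these data known.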

Additional observations from a re-analysis of the deposited data

How the results depend on the processing

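Directions of 15 of the 38 members (Cd3e, Cd7, Cd8b1, Gata3, Gzma, Gzmb, Ikzf2, Il2ra, Klrd1, Klrk1, Nkg7, Prf1, Tbx21, Trdc and Zap70) were the same in all 17 alternative settings, and 23 changed sign in at least 1, the scalings included. For these sign changes the cause was not tested, beyond which libraries were left out. With 3 libraries a group and 1 to 54 reads a library for genes such as Ncr1 and Foxp3, depth limits what could be detected.

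The number of genes called over the whole table was 202. It was 122 with a filter at a mean of 5, 118 with a pseudocount of 0.1, 416 when scaled by total reads, 1271 when scaled to epithelial genes, 0 with limma without trend and robust (3499 at an unadjusted p under 0.05), and 393 without both replicate 1 libraries. Leaving out 1 library at a time gave 10 to 351. On recovered reads of 5 libraries, chosen after seeing the data, edgeR called 41 and DESeq2 1256. The count tests on all 6 libraries were not run, because the step of Otud1-/- 3 lies so near 1 that a check of its values did not accept the recovered reads. The median change of all genes was 0.02, but 0.22 when scaled by total reads and 0.44 when scaled to epithelial genes.

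Same-numbered libraries were not alike on 1 measure: their deviations from their group means had correlations of -0.26, -0.10 and -0.09 across genes. Libraries with different numbers had correlations between -0.08 and 0.16. These values cannot show whether same-numbered libraries were handled together. With the replicate number as a block, 18 genes were called over the whole table and 0 members, with 2 members at an unadjusted p under 0.05.

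Among members, scaling to the epithelium list called 1 (Zap70), and the other settings called 0. The number with a change below 0 was 17 after scaling to the epithelium list (16.7% of all genes), 14 without both replicate 1 libraries, and 20 to 35 when 1 library was left out. The median member change was 0.17 without both replicate 1 libraries, a pair that held most of the extreme values of the members. Without both, the median was 0.52 for the receptor and CD3 chains, 0.68 for proximal signalling, 0.32 for Cd4 and -0.10 for the regulatory genes. After scaling to the epithelium list it was -0.11 for the regulatory and -0.0357 for the cytotoxic and NK genes. The regulatory median ran between -0.73 and -0.12 when 1 library was left out. The difference in the ratio of Cd8a to Cd4 was -0.0046 without both replicate 1 libraries.

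Both scalings raise all genes, and 34 of the 38 members lay below the median of all genes under each, as against 33 without them. The changes above 0 listed next for the scalings were each below that median. Scaling to the epithelium list gave 0.22 for Cd3d, 0.15 for Cd247, 0.15 for Trac, 0.27 for Trbc1, 0.28 for Trbc2, 0.31 for Lck, 0.18 for Lat, 0.0798 for Cd2, 0.0876 for Cd5, 0.0718 for Cd6, 0.43 for Thy1, 0.13 for Cd8a, 0.11 for Foxp3, 0.28 for Il2rb, 0.0230 for Eomes and 0.0860 for Itgae. Scaling to total reads gave 0.0376 for Trbc1, 0.0531 for Trbc2, 0.0804 for Lck, 0.19 for Thy1 and 0.0455 for Il2rb. Without both replicate 1 libraries the changes were 0.52 for Cd3d, 0.52 for Cd3g, 0.55 for Cd247, 0.49 for Trac, 0.17 for Trbc1, 0.58 for Trbc2, 0.68 for Lck, 0.47 for Lat, 0.55 for Cd2, 0.59 for Cd5, 0.55 for Cd6, 0.0772 for Cd27, 0.0874 for Cd28, 0.20 for Thy1, 0.32 for Cd4, 0.30 for Cd8a, 0.13 for Foxp3, 0.56 for Il2rb and 0.0957 for Ikzf3. Thy1 was at 0.0547 with edgeR and 0.0457 with DESeq2. Ncr1 was at -0.11 with DESeq2 and -0.11 with quantile normalisation.

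Leaving out 1 library at a time gave changes of -0.58 to 0.27 for Cd3d, -0.85 to 0.0617 for Cd3g, -0.54 to 0.22 for Cd247, -0.58 to 0.26 for Trac, -0.30 to 0.03999 for Trbc1, -0.49 to 0.32 for Trbc2, -0.43 to 0.41 for Lck, -0.59 to 0.29 for Lat and -0.69 to 0.18 for Cd2. The ranges were -0.85 to 0.19 for Cd5, -0.66 to 0.18 for Cd6, -0.12 to 0.18 for Thy1, -0.65 to 0.11 for Cd8a, -0.51 to 0.0347 for Foxp3, -0.0918 to 0.37 for Ncr1, -0.56 to 0.40 for Il2rb, -0.79 to 0.0935 for Eomes and -0.47 to 0.84 for Il7r.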
